A study of Mus musculus with 4 samples.

Results

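The comparison set the marrow of a mouse with an acute leukemia typed as B/T biphenotypic, here B/T BAL, against normal bone marrow, with 1 array on each side. Members were chosen by rule as all probe sets that carry 1 gene symbol, with control probe sets left out, and each gene was represented by its brightest probe set. Of 18193 such genes, 12051 had a signal above a floor of 189, the median of all signals, on at least 1 of the 2 arrays and are called measured. The B/T BAL arose from mouse hematopoietic stem or precursor cells transduced with the AF4-MLL fusion gene. Marrow was taken from the moribund animal and its cells were typed by flow cytometry and not sorted. Residual normal cells of the host may therefore be part of the sample. The normal marrow is labelled as a control. The other 2 of the 4 arrays of the series hold a proB acute lymphoblastic leukemia (proB ALL), also from AF4-MLL, and a mixed lineage leukemia from cells that carried both AF4-MLL and MLL-AF4. They are given beside the comparison as further single samples. The series title names C57BL6 mice, and no age is stated in the sources used here. Since no group has a replicate, no value has a replicate error, no test was possible, and every difference stands for these 2 arrays.

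AF4-MLL is the reciprocal product of the chromosomal translocation that joins Kmt2a, the gene of the histone methyltransferase MLL, to Aff1, the gene of AF4, which is part of a transcription elongation complex, in a form of acute leukemia. T cells develop in the thymus under Notch signals: precursors first rearrange the T-cell receptor beta genes with the RAG recombinase, then display the beta chain with the invariant pre-T-cell receptor alpha chain and the CD3 proteins, pass through a stage with both CD4 and CD8, and last replace the pre-T alpha chain with a rearranged alpha chain. B cells develop in the marrow with the same recombinase, under the factors EBF1 and PAX5, and display a surrogate light chain at the corresponding step.

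On both arrays the share of probe sets above the floor was close, at 49.0% for B/T BAL and 47.2% for normal marrow. For Actb, whose 3' over 5' signal reflects how intact the RNA was and how far labelling ran, this ratio was 4.72 in B/T BAL against 1.87 in normal marrow, while for Gapdh it was 1.14 and 0.944. The part of this gap in the differences that follow was not tested. Over 5393 genes with several measured probe sets, the difference had a standard deviation of 0.71 on the log2 scale between probe sets of a gene. It is the only measure of scatter here. All probe sets were read on the same 2 arrays, so it cannot measure variation between replicate arrays, labellings or RNA preparations.

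Genes of developing T cells were far higher in B/T BAL than in normal marrow, and genes of red cell precursors, eosinophils, platelets, macrophages and B cells were far lower. Across the array 2010 genes stood at least 2-fold higher, which is 16.7% of those measured, and 2318 were at least 2-fold lower, 19.2%. Counts rest on log2(signal + 51.5), with 51.5 taken as the 25th percentile over the 4 arrays, and this scale understates the change of dim genes. The median difference over all measured genes was 0.05, and 7723 genes lay between the thresholds. At least 8-fold differences were seen for 189 genes on the higher and 308 on the lower side. Normal marrow was at or below the floor for 614 of the higher genes, and B/T BAL for 772 of the lower ones. Of 835 higher genes that had several measured probe sets, 712 had all of them higher, and of 959 such lower genes 802 had all of them lower. Cells were not sorted, so fewer cells of a type and less RNA per cell cannot be told apart in any of these differences. Gene lists describe the groups that follow, and each list is given by the counts of its measured genes beside these shares. A gene that is dim on both arrays is not measured, so such counts do not describe every member of a list.

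**Figure D1:**
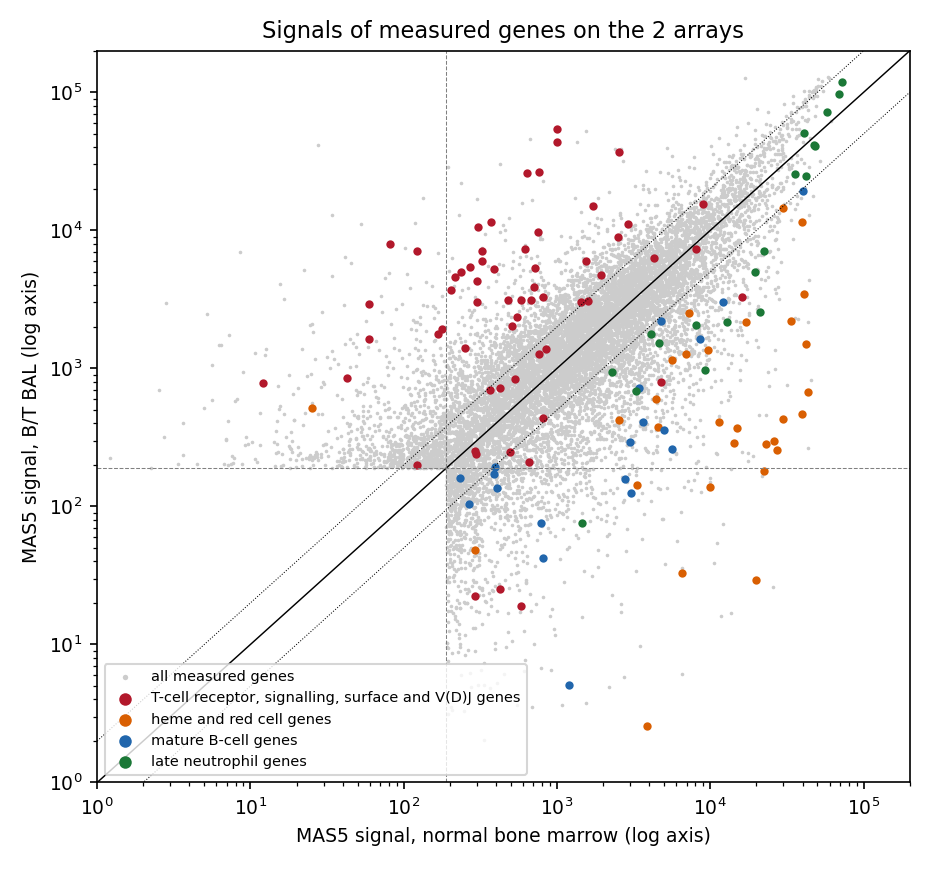
MAS5 signal of each measured gene in normal bone marrow (x, log axis) and in B/T BAL (y, log axis), 1 point per gene, with 4 groups of listed genes in colour. The solid line marks equal signals, dotted lines 2-fold differences and dashed lines the floor of 189; T-cell genes lie mostly above the solid line, heme and red cell genes below it apart from 1 globin point, and the brightest late neutrophil genes near it.

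The chains of the T-cell receptor complex stood out first. Of 11 listed genes 6 were measured and 6 of these were at least 2-fold higher, with a median log2 difference of 4.75. On all 6 the B/T BAL signal was the highest of the 4 arrays, as it was for 32.7% of all measured genes. Cd3d, the delta chain of the CD3 complex that carries the receptor's signal into the cell, had a signal of 43500 in B/T BAL against 1002 in normal marrow, 12582 in proB ALL and 765 in mixed lineage leukemia. Cd3g, the gamma chain, had 25806 against 632, 3290 and 314 on the same arrays. Cd3e, the epsilon chain, had 11474 against 372, 32.3 and 43.8. B/T BAL was thus 43.4-fold, 40.8-fold and 30.9-fold above normal marrow for the 3 chains, and proB ALL was high for the delta and gamma chains but below the floor for epsilon. Cd247, the zeta chain, had 4601 in B/T BAL against 216 in normal marrow, with 3788 in proB ALL and 78.2 in mixed lineage leukemia, so both AF4-MLL leukemias were high. Trbv13-2, a variable segment of the beta chain, had 3712 against 204, 79.7 and 183, and B/T BAL was the 1 high array. Trbv1, another beta segment and among the 25 highest genes, had 43995 against 1356, 11369 and 315. Its 2 measured probe sets differed by 1.96 and 4.97, and the one used is of a type marked for cross-hybridisation, so the size of the change is uncertain.

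Promoters of 4 of these T-cell genes are shown because the genes stood at the top of the comparison together. Each is 300 bases, from RefSeq on GRCm38.p6, 5′ to 3′ on the gene's strand, and capitals mark every E-box (CANNTG, the same on both strands), a motif that E proteins such as TCF3 and TCF12 bind. It is common: 72.3% of all 32851 promoters of this length hold at least 1, against 83.6% of 61 promoters of higher genes of the T-cell lists. Ptcra lies at chr17:46763663-46763962 on the minus strand and holds 3, Cd3g at chr9:44980382-44980681 on the minus strand holds 4, Cd3e at chr9:45009562-45009861 on the minus strand holds 2, and Cd3d at chr9:44981536-44981835 on the plus strand holds 1. A match describes the letters and is not a measured binding site.
Ptcra: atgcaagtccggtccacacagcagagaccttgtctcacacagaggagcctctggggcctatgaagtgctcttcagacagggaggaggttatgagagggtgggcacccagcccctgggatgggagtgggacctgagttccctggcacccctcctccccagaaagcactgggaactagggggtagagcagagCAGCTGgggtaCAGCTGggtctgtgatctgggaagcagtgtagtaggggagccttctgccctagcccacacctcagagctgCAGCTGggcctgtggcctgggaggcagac
Cd3d: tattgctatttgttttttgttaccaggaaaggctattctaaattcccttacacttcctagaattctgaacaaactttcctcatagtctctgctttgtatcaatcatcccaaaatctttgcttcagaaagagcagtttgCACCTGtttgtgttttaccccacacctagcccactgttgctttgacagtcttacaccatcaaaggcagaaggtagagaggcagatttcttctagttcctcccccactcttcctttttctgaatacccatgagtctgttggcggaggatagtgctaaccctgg
Cd3g: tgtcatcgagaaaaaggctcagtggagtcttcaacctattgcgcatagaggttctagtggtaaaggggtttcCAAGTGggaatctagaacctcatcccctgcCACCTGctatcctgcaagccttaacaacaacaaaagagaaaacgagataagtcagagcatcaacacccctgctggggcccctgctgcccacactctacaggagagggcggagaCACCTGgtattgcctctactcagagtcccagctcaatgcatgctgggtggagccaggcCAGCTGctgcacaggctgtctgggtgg
Cd3e: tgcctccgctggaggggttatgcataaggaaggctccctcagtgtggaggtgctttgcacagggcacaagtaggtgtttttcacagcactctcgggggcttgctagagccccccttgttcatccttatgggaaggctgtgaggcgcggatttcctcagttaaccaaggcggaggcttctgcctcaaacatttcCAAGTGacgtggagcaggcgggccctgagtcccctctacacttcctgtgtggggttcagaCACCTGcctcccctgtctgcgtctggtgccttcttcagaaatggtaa
The windows of Cd3d and Cd3g lie near each other on chromosome 9 and read away from each other.

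Several genes of the pre-T-cell receptor and of receptor gene rearrangement were higher alongside. Of 11 measured genes 6 were at least 2-fold higher and 0 lower, with a median of 1.89. Ptcra, the invariant alpha chain, had 7093 in B/T BAL and was under the floor on each other array, with 123 in normal marrow, 114 in proB ALL and 115 in mixed lineage leukemia. It was at least 37.5-fold higher, and B/T BAL was the 1 array on which it was seen. Rag1, the catalytic subunit of the recombinase, had 14988 against 1721 in normal marrow, 1.76 in proB ALL and 19.8 in mixed lineage leukemia. Dntt, the polymerase that adds bases at the joins of rearranged genes, had 11061 against 2913, 82.8 and 314. Both are also used by B-cell precursors, and both were above the floor in normal marrow and B/T BAL, with Rag1 below the floor in both other leukemias and Dntt below it in proB ALL. Rag2, the partner of Rag1, had 201 against 122 in normal marrow, close to the floor on both arrays. Of the repair proteins that close the joins, Xrcc6 (Ku70) had 37035 against 2541, 4252 and 864, Lig4 (DNA ligase 4) had 3119 against 482, 297 and 687, and Xrcc5 (Ku80) had 2022 against 509, 2402 and 296. The other such genes differed less, with Xrcc4 at 726 against 424 and Prkdc at 1372 against 846.

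Most genes of proteins that pass on the signal of the T-cell receptor were higher. Of 17 measured genes 13 were at least 2-fold higher and 1 lower, with a median of 2.14. Lat, the membrane scaffold phosphorylated after receptor binding, had 26454 in B/T BAL, 765 in normal marrow, 4436 in proB ALL and 106 in mixed lineage leukemia. Zap70, the kinase that binds the phosphorylated CD3 chains, had 7311 against 616, 1850 and 136 by its brightest probe set, but its 3 measured probe sets had differences from -1.72 to 4.15. Themis, a regulator of thymocyte selection, had 5412 against 271, 2170 and 75.7. The highest array for each of these 3 was B/T BAL, and proB ALL came next. Sh2d1a, the adaptor SAP, had 7934 in B/T BAL and 7061 in proB ALL against 81.6 and 116 in normal marrow and mixed lineage leukemia. Skap1 at 5213 against 389, Plcg1 (phospholipase C gamma 1) at 6028 against 1543 and Fyn, a SRC-family kinase, at 3283 against 815 were also higher than normal marrow. For Prkcq (protein kinase C theta) proB ALL was above B/T BAL, with 3151 in B/T BAL, 673 in normal marrow, 9828 in proB ALL and 247 in mixed lineage leukemia. Grap2, the adaptor GADS, was the lower gene at 210 against 660. The SRC-family kinase Lck was not analysed here.

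Genes of coreceptors and other surface proteins of T cells split. Of 27 measured genes 16 were at least 2-fold higher and 5 lower, with a median of 2.25, which was 1.04 without probe sets marked for cross-hybridisation. Thy1, a surface protein of mouse T cells, had 54065 in B/T BAL against 995 in normal marrow, 28959 in proB ALL and 453 in mixed lineage leukemia. Cd8a, the alpha chain of the coreceptor for MHC class I, had 10607 against 307, 135 and 258. Its 5 measured probe sets differed by 0.16 to 4.90 on the log2 scale, so the size of the change depends on the probe set. Cd8b1, the beta chain, had 4987 against 236, 68.6 and 55.4, and B/T BAL was the 1 high array for both chains. Cd4, the coreceptor for MHC class II, had 848 and lay below the floor elsewhere, with 42.9 in normal marrow, 122 in proB ALL and 57.2 in mixed lineage leukemia. Cd5, which dampens receptor signals, had 4297 against 299, 128 and 240, and Cd6, its close relative, had 1759 against 168, 90.8 and 36.1. Cd27 and Cd28, costimulatory receptors, had 7067 and 6020 against 324 and 322 in normal marrow. Il2ra, the alpha chain of the interleukin 2 receptor found on early thymocytes, had 1921 in B/T BAL and 1882 in proB ALL against 179 and 117, so both AF4-MLL leukemias were high. Ccr9, a receptor for the thymic chemokine CCL25, had 3859 against 713, 1643 and 1148.

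Among the members of the coreceptor list that were at least 2-fold lower were Cd44, Ccr7, S1pr1 and Cd7. Cd44, a receptor for hyaluronan carried by early progenitors and mature cells, had 3284 in B/T BAL, 16010 in normal marrow, 11064 in proB ALL and 30627 in mixed lineage leukemia, and all 3 of its probe sets were lower. Ccr7 and S1pr1, receptors that guide mature T cells to lymph nodes and out of the thymus, had 25.2 and 22.5 in B/T BAL, below the floor, against 423 and 292 in normal marrow. Klf2, the transcription factor that drives S1pr1, had 1152 against 2376, 4066 and 4568, the lowest of the 4 arrays. Cd7 had 19.0 against 582 in normal marrow, 9369 in proB ALL and 517 in mixed lineage leukemia, so B/T BAL was the 1 array below the floor. Cd69, an early activation protein, had 248 against 495, 3555 and 1156.

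Genes of T-lineage transcription factors were mostly higher. Of 28 measured genes 17 were at least 2-fold higher and 3 lower, with a median of 1.47. Bcl11b, which commits precursors to the T lineage, had 9352 in B/T BAL against 340 in normal marrow, 231 in proB ALL and 370 in mixed lineage leukemia, and its 4 probe sets differed by 2.07 to 5.94. Lef1, a partner of beta-catenin, had 16719 against 687, 3199 and 222. Gata3, needed for T-cell development from its first steps, had 2567 against 29.3, 432 and 76.1 and was at least 13.6-fold higher. For all 3 factors B/T BAL was the highest array, by 25.3-fold over the next for Bcl11b. Sox4 had 39714 against 5255, 3516 and 1695, Ikzf2 (Helios) had 9026 against 1066, 198 and 723, and Id3, an inhibitor of E proteins, had 2515 against 479, 224 and 157. Satb1, a chromatin organiser of thymocytes, had 18916 against 2171, 8046 and 5049. The E proteins Tcf12 and Tcf3 had 19945 and 4641 against 4385 and 1635 in normal marrow. Id2, another inhibitor of E proteins and high in NK cells, had 6113 against 4705, below proB ALL at 14538 and mixed lineage leukemia at 18047. Zbtb7b (ThPOK), which directs cells to the CD4 lineage, had 655 against 1767, and Runx3, of the CD8 lineage, had 501 against 967. Tcf7 was not analysed here.

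Notch1, Notch3 and several targets of the pathway were high on the B/T BAL array. Of 15 measured genes 7 were at least 2-fold higher and 2 lower, with a median of 0.86. Notch1, the receptor that starts T-cell development, had 32026 in B/T BAL, 2682 in normal marrow, 3907 in proB ALL and 2562 in mixed lineage leukemia. Notch3, a receptor and itself a target of Notch1 in thymocytes, had 10902 against 445, 371 and 318. Notch2, a receptor of other blood lineages, had the opposite order, with 1175 in B/T BAL, 3673 in normal marrow, 7221 in proB ALL and 16048 in mixed lineage leukemia. The B/T BAL array was therefore 8.20-fold above the next array for Notch1 and 24.5-fold for Notch3, and the lowest of the 4 for Notch2. Among the targets, Dtx1 (Deltex 1) had 15724 against 589, 257 and 409, Hes1, a repressor, had 2288 against 327, 127 and 108, and Heyl, another repressor, had 3290 against 292, 167 and 33.9. On each of the 3 the 3 other arrays stayed at or below 589. Nrarp, a feedback inhibitor, had 2076 against 1119 and was higher in proB ALL at 4042. Rbpj, the DNA-binding partner of all Notch receptors, was similar at 2917 and 2619. The ligand Jag1 was at 264 and 268 by the probe set used, but another measured one had 284 against 76.0, a difference of 1.39, so its probe sets disagree.

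**Figure D2:**
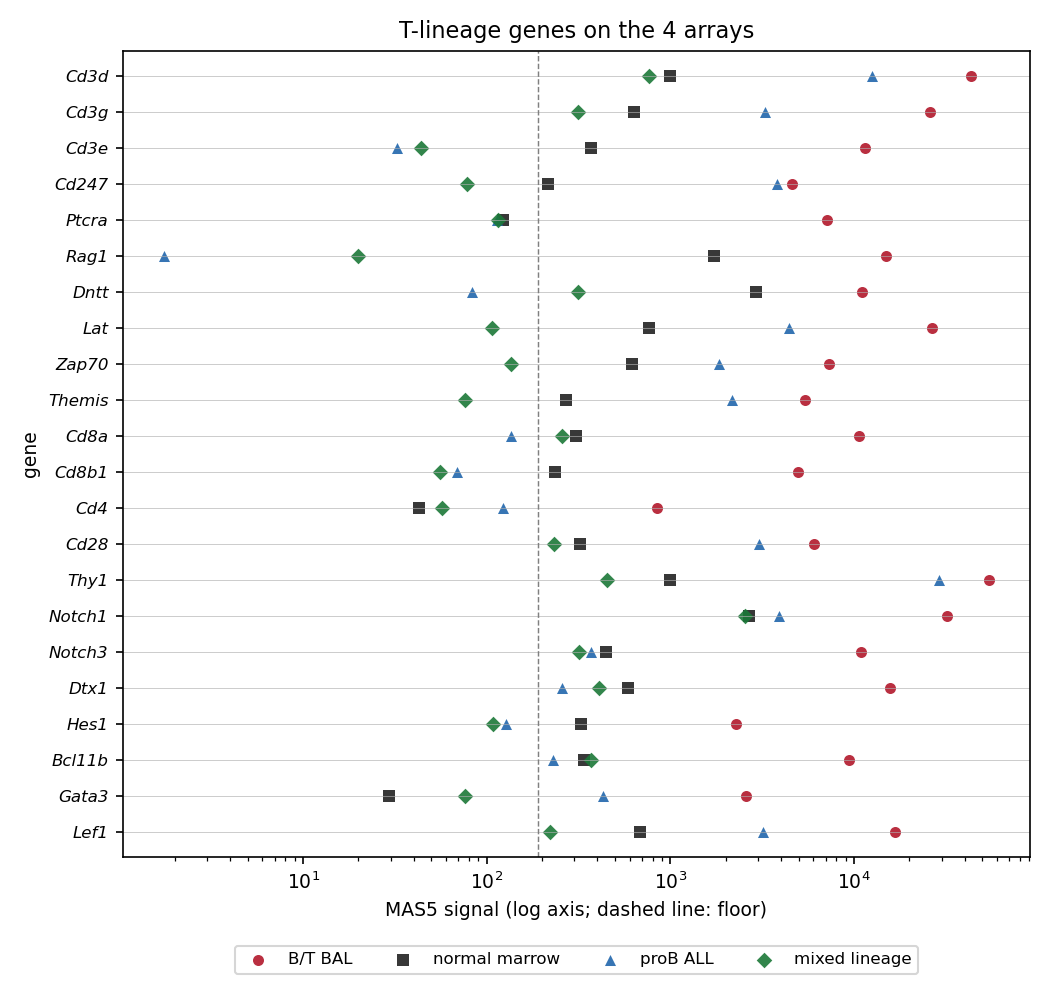
MAS5 signal (log axis) of 22 T-lineage genes on each of the 4 arrays, 1 symbol per array, with the floor as a dashed line. The B/T BAL symbol is the furthest right for each gene; proB ALL comes near it for Cd247 and Thy1 and is near or below normal marrow for Cd3e, Ptcra, Rag1, Bcl11b, Notch3 and Dtx1.

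Genes of the earliest thymocytes and of other T-cell leukemias were not among the higher ones. Of 16 measured genes 1 was at least 2-fold higher and 13 lower, with a median of -1.41. Lmo2 and Lyl1, partners of the stem cell factor TAL1, had 823 and 1439 in B/T BAL against 15512 and 7345 in normal marrow, 638 and 615 in proB ALL and 5670 and 5347 in mixed lineage leukemia. Both are also expressed by red cell precursors, whose genes were lower as well. Hhex, a homeobox gene of progenitors, had 443 against 4436, 4449 and 8959, and Kit, the stem cell factor receptor, had 201 against 2413, 1366 and 2061. The lowest array for these 2 genes was B/T BAL. Mef2c, Bcl11a and Spi1 (PU.1) had 174, 225 and 1208 against 1525, 2604 and 3444 in normal marrow. Phf6, a chromatin protein mutated in T-cell leukemia, was the higher gene at 1487 against 390, with 3 probe sets from -0.77 to 1.80.

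Gamma delta T-cell genes were mixed, and few could be measured. Of 13 listed genes 7 were measured, 4 of them at least 2-fold higher and 2 lower, with a median of 2.44 that was 1.27 with no filter and 0.18 without probe sets marked for cross-hybridisation. Trgv4, a variable segment of the gamma chain, had 28524 in B/T BAL, 194 in normal marrow, 4382 in proB ALL and 148 in mixed lineage leukemia. It was 147-fold higher, and its 3 probe sets differed by 5.17 to 6.86. Trgv1, another gamma segment named for its rank, had 12864 against 228, 6350 and 141. Cd163l1 (SCART1), a scavenger receptor of gamma delta T cells, had 13017 in B/T BAL and 19681 in proB ALL against 34.2 and 45.9. B/T BAL and proB ALL were the 2 high arrays for all 3 genes. Sox13, a factor of the gamma delta lineage, had 1580 against 249, and Maf and Blk had 227 and 294 against 1803 and 3007. Gamma segments share sequence, so the probe sets of single segments may read others, which was not tested.

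Killer cell genes were not high, with 1 exception. Of 15 measured NK and cytotoxic genes 1 was at least 2-fold higher and 7 lower, with a median of -0.98 that was -3.70 with a filter at the 75th percentile. Gzma, granzyme A, was the exception at 52157 in B/T BAL, 1556 in normal marrow, 54327 in proB ALL and 931 in mixed lineage leukemia. The other members did not follow it: Klrd1 (CD94) had 65.8 against 1597, 31042 and 1294, Nkg7 had 550 against 7755, 27934 and 7892, and Ccl5 had 255 against 4432, 30823 and 2399. Eomes, a T-box factor of killer cells, had 127 against 641, 15148 and 67.4. Of the 4 NK cell markers on the array, 4 were at or below the floor in B/T BAL, and their summed signals were 390 there, 2666 in normal marrow, 77837 in proB ALL and 1638 in mixed lineage leukemia.

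The label of this leukemia names both B and T cells, and the markers bear out the T side alone. All 8 T-cell markers with a probe set of 1 symbol exceeded normal marrow by at least 2-fold, with summed signals of 158381 in B/T BAL against 3709 in normal marrow, 45303 in proB ALL and 2061 in mixed lineage leukemia. Of 7 measured B-cell markers 0 were higher and 7 were lower. Of the 8 B-cell markers on the array 4 were at or below the floor in B/T BAL, and their summed signals were 1452 there, 35429 in normal marrow, 4393 in proB ALL and 8203 in mixed lineage leukemia. The protein markers behind the label were not analysed here.

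The early B-cell list shows which of its genes went with which lineage. Of 23 measured genes 6 were at least 2-fold higher and 13 lower, with a median of -1.97. The 6 were Dtx1, Rag1, Dntt, Il7r and Tcf3, which T-cell precursors also use, and Arpp21, a phosphoprotein gene of immature lymphocytes and brain, at 5691 against 417, 154 and 189. The genes that belong to the pre-B-cell receptor were low. Vpreb1, which forms the surrogate light chain with Igll1, had 54.1 in B/T BAL, 11111 in normal marrow, 30.1 in proB ALL and 97.3 in mixed lineage leukemia. Igll1 had 151 against 4111, 64.6 and 52.7 by its brightest probe set, and its 2 probe sets differed by -4.36 and -0.91. Cd79a and Cd79b, the signalling chains of the B-cell receptor, had 216 and 352 against 1708 and 6035 in normal marrow, with 426 and 2484 in proB ALL and 994 and 3051 in mixed lineage leukemia. For the CD79 pair B/T BAL was the lowest of the 4 arrays, while for Vpreb1 all 3 leukemias were below the floor. Blnk, the adaptor of the B-cell receptor, had 243 against 5947, 441 and 1005, and Spib, a B-cell factor, had 240 against 5977, 1550 and 991. Ebf1, which specifies the B lineage, had 117 against 697, 128 and 138. Pax5 was below the floor on both arrays.

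Mature B-cell genes were lower still as a group. Of 19 measured genes 0 were at least 2-fold higher and 16 lower, with a median of -2.38, and B/T BAL was the lowest of the 4 arrays on 15, against 22.7% of all measured genes. Ms4a1 (CD20) had 261 in B/T BAL against 5634 in normal marrow, 721 in proB ALL and 2746 in mixed lineage leukemia. Btk, a kinase of the B-cell receptor, had 358 against 4954, 1117 and 3213, and Fcmr, the receptor for IgM, had 126 against 3024, 172 and 1559. B/T BAL was lowest on Ms4a1 and Btk, and proB ALL was below the floor with it on Fcmr. Secreted antibody genes did not share this. Igha, the heavy chain of IgA, had 60741 against 37420, 35862 and 17247, and Jchain, which joins IgA and IgM units, had 14247 against 20477, 25231 and 5382. Of 10 measured plasma cell genes 1 was at least 2-fold higher and 1 lower, with a median of -0.40. Ighm had 19421 against 40104, but its 8 measured probe sets spread from -1.74 to 2.39 and the mean over all its probe sets, dim ones included, was 0.27, so no direction is given for it.

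MHC class II genes were lower with the B-cell and macrophage genes. Of 9 measured genes 6 were lower by at least 2-fold and 1 higher, with a median of -1.61. Cd74, the invariant chain, had 3049 in B/T BAL, 12010 in normal marrow, 21778 in proB ALL and 13732 in mixed lineage leukemia. H2-Aa, an alpha chain, had 5862 against 13982, 21107 and 22441. For both, B/T BAL was the lowest array. MHC class I genes had a median of -0.08 over 13 measured genes, with 3 higher and 3 lower. H2-K1 and H2-D1, classical class I genes, had 14154 and 15653 against 35517 and 33129, while Tap2, a peptide transporter, had 6751 against 1900 and Psmb8, an immunoproteasome subunit, had 19267 against 7259.

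By list median, red cell genes were the lowest group. Of 18 measured genes of the red cell membrane and its enzymes 18 were lower by at least 2-fold, the median being -5.82, and of 12 measured genes of heme synthesis and globins 11 were lower, with a median of -2.79. Alas2, the erythroid form of the first enzyme of heme synthesis, had 467 in B/T BAL, 39547 in normal marrow, 183 in proB ALL and 263 in mixed lineage leukemia. Slc4a1 (band 3), the anion exchanger of the red cell membrane, had 1496 against 41904, 318 and 592. Car1, carbonic anhydrase 1, had 29.5 against 19804, 158 and 89.9 and was at least 105-fold lower. All 3 leukemias were far below normal marrow for the 3 genes, and the B/T BAL array kept the most Alas2 and Slc4a1 among the leukemias. Trim10, a factor of red cell maturation, had 181 against 22552, 84.3 and 326, and Tspan33, a tetraspanin of erythroid precursors, had 256 against 27117, 282 and 334. Of the other heme enzymes, Fech, which inserts the iron, had 3467 against 40745, Cpox 375 against 4585 and Alad 2153 against 17059. Urod at 11579 against 39414 and Alas1, the form outside red cells, at 2536 against 7266 had smaller differences. Hbb-b2, a beta globin, was 1 exception by its brightest probe set, 513 against 25.1, but its other probe set had a difference of -7.04, so it is uncertain. The red cell markers had summed signals of 2223 in B/T BAL, 103294 in normal marrow, 616 in proB ALL and 1082 in mixed lineage leukemia.

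Promoters of Alas2 and Trim10 are shown because GATA1, whose own gene was lower, binds this motif in red cells. Both windows are 300 bases from RefSeq on GRCm38.p6, 5′ to 3′ on the gene's strand. Alas2 lies at chrX:150547167-150547466 and Trim10 at chr17:36869324-36869623, both on the plus strand. Capitals mark the GATA motif searched, AGATAA on either strand, which reads TTATCT on the other and overlaps no E-box pattern; each window holds 1. Of 43 promoters of lower genes of the red cell lists 23.3% hold it, against 11.2% of all promoters and 6.56% of the promoters of higher T-cell genes. Most promoters of these lower genes thus hold no match, and the windows shown are not typical of them. Such a match says nothing about binding in these samples.
Alas2: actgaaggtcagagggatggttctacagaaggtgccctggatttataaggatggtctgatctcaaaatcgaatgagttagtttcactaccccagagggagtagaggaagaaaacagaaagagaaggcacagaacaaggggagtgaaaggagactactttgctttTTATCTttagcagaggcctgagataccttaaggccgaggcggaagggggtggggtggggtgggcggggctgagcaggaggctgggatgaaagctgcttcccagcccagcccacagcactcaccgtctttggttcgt
Trim10: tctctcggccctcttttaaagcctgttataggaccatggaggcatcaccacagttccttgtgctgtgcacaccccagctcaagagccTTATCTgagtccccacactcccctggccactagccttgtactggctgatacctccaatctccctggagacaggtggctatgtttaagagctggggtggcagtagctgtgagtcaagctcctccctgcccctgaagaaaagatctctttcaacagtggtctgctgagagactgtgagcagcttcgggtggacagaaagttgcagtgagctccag
Genes of the factors of the red cell and platelet lineages were lower with the red cell genes. Of 15 measured genes 12 were lower by at least 2-fold and 1 higher, with a median of -3.83. Klf1, which activates the adult globin genes, had 165 in B/T BAL, 21735 in normal marrow, 104 in proB ALL and 192 in mixed lineage leukemia. Gata1, the GATA factor of the red cell lineage, had 326 against 9009, 63.8 and 332, and Gfi1b, a repressor, had 126 against 8632, 169 and 486. Tal1 had 214 against 17694, 145 and 749. Normal marrow was far the highest array for all 4. Nfe2 separated the leukemias, with 1150 in B/T BAL, 17027 in normal marrow, 439 in proB ALL and 13334 in mixed lineage leukemia. Ldb1, a cofactor shared with other lineages, was the higher gene at 4048 against 1343.

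Platelet, eosinophil and basophil genes were low as well. Of 14 measured platelet and megakaryocyte genes 12 were lower by at least 2-fold and 0 higher, with a median of -2.56. Ppbp, which encodes a chemokine stored in platelets, had 248 in B/T BAL, 16168 in normal marrow, 244 in proB ALL and 351 in mixed lineage leukemia. Pf4 (platelet factor 4) had 738 against 10077, 883 and 531. Of 13 measured eosinophil, basophil and mast cell genes 12 were lower and 0 higher, with a median of -2.64. Epx, eosinophil peroxidase, had 25.9 against 25742, 46.3 and 156 and was at least 136-fold lower. Prg2, the major basic protein of eosinophil granules, had 267 against 43661, 248 and 2186 and was 164-fold lower, the largest fold on the lower side with both signals above the floor. The basophil protease Mcpt8 had 1478 against 9174, 238 and 39892, so mixed lineage leukemia stood above normal marrow and both AF4-MLL leukemias below it. Cpa3, a mast cell protease, was level at 2567 and 2559.

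Neutrophil genes were uneven. Of 19 measured late neutrophil genes 0 were at least 2-fold higher and 11 lower, with a median of -1.23, but the brightest of them were close to normal marrow. S100a9, a calcium-binding protein of neutrophils, had 119234 in B/T BAL, 71928 in normal marrow, 39840 in proB ALL and 112499 in mixed lineage leukemia. Ngp, a protein of secondary granules, had 71421 against 57676, 18230 and 96357, and Camp (cathelicidin) had 41362 against 47614, 11586 and 86950. For these 3 genes proB ALL was the low array, and B/T BAL lay within 2-fold of normal marrow. The S100a9 signal in normal marrow was the highest on that array. Whether ratios are compressed at the top of the signal range was not tested. Genes of receptors and proteases of late neutrophils were lower. Csf3r, the G-CSF receptor, had 976 against 9225, 296 and 4651. Cxcr2 had 76.4 against 1455, 32.5 and 898, and Mmp8 had 2567 against 21182, 658 and 24204. Of 11 measured genes on the list of primary granules, made by promyelocytes, 8 were at least 2-fold lower and 1 higher. The median was -1.78, and the lowest difference, -3.70, was that of Nkg7, also counted with the killer cell genes. Mpo (myeloperoxidase) had 12934 against 43969, 4035 and 60520, and Elane (neutrophil elastase) had 2699 against 20277, 2058 and 32120. The higher one, Gfi1, at 5688 against 2039, is also a factor of T-cell precursors. Summed signals of the 7 neutrophil markers were 369052 in B/T BAL, 352870 in normal marrow, 118106 in proB ALL and 580529 in mixed lineage leukemia. Neutrophil transcripts were thus part of the B/T BAL sample. The brightest genes weigh most in these sums, and 2 of the 7 markers were at least 2-fold lower.

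Monocyte, macrophage and dendritic cell genes were lower. Of 19 measured monocyte genes 12 were lower by at least 2-fold and 2 higher, with a median of -1.21, and of 18 measured macrophage genes 18 were lower, with a median of -2.36. Csf1r, the receptor for M-CSF, had 5175 in B/T BAL, 14944 in normal marrow, 5169 in proB ALL and 17085 in mixed lineage leukemia. Lyz2, a lysozyme, had 20315 against 41486, 6937 and 71213, and F13a1 had 5670 against 12879, 738 and 39455. Mixed lineage leukemia was the highest of the 4 arrays for these 3. Mrc1, the mannose receptor, had 250 against 3870, 1509 and 480, and Vcam1, an adhesion protein of macrophages that support red cell precursors, had 988 against 10584, 4344 and 7660. Cd5l and Slc40a1 (the iron exporter ferroportin) had 363 and 1250 against 6667 and 15860. For the last 4 genes B/T BAL was the lowest array. Of 12 measured dendritic cell genes 8 were lower and 2 higher, 1 of them Ccr9, which is also on the T-cell list, with a median of -1.45.

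**Figure D3:**
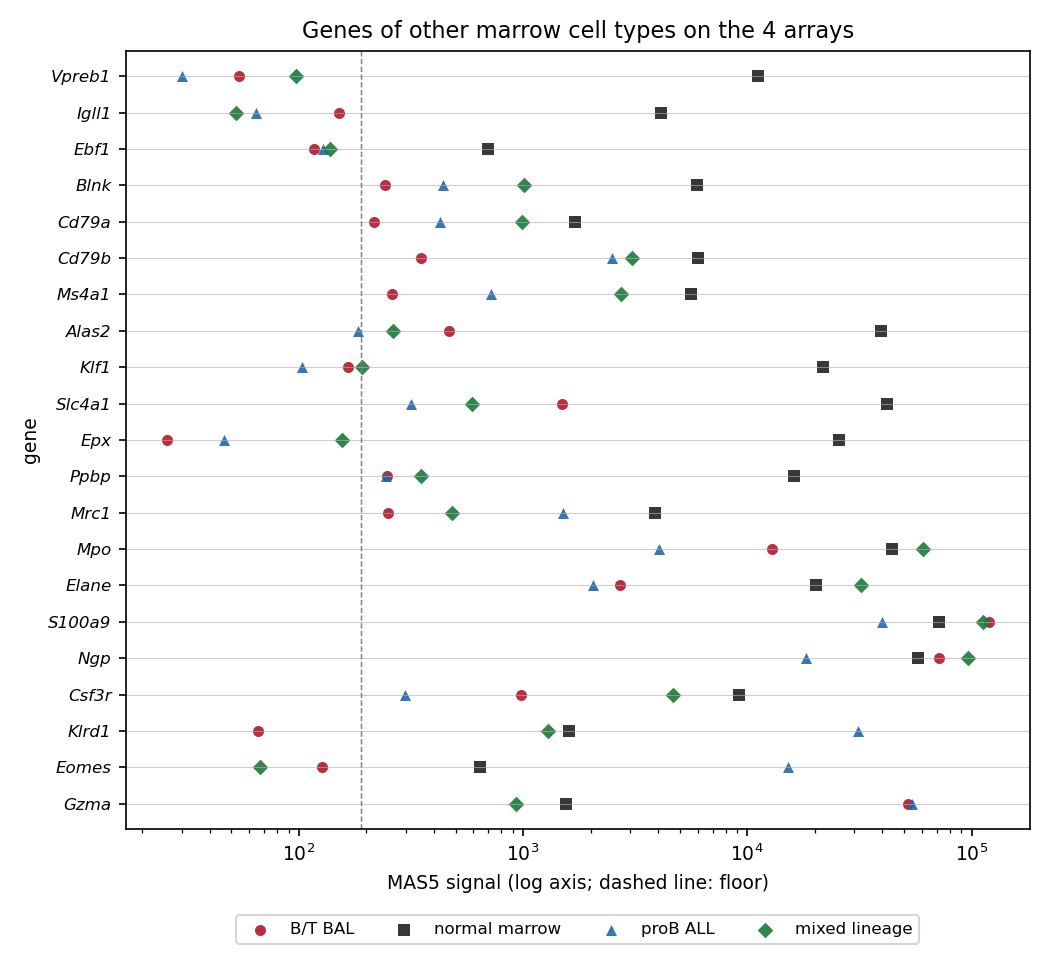
MAS5 signal (log axis) of 21 genes of B cells, red cells, eosinophils, platelets, macrophages, neutrophils and killer cells on each of the 4 arrays, 1 symbol per array, with the floor as a dashed line. Normal marrow is furthest right from Vpreb1 to Mrc1; B/T BAL lies near normal marrow for S100a9 and Ngp and far above it for Gzma alone.

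Stem and progenitor genes were mostly lower. Of 17 measured genes 14 were lower by at least 2-fold and 1, Sox4, higher, with a median of -1.77. Cd34 had 252 in B/T BAL against 1641 in normal marrow, 175 in proB ALL and 244 in mixed lineage leukemia. Erg, a stem cell factor, had 122 against 1097, 55.3 and 3214, and Flt3, a receptor of early progenitors, had 195 against 796, 572 and 752. Of 34 listed Hox, Meis and Pbx genes only 11 were measured, 4 higher and 3 lower, with a median of 0.35. The largest difference was that of Hoxd8, at 316 against 17.1, 71.4 and 369, and its other probe set had a difference of 1.22. Hoxa9, a gene high in many leukemias with MLL fusions, had 269 against 743, 171 and 320. Its partner Meis1 had 34.6 against 282, 45.8 and 385. For Hoxa9 the difference was -1.31 by this probe set and -0.40 by its other one. For Meis1 it was -1.95 and, by its other measured probe set, -0.46. By the signals given, the AF4-MLL leukemias were at or near the floor for both genes. Pbx3 was higher at 2653 against 948, 239 and 843.

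The genes of MLL, AF4 and their partners differed little. Of 23 measured genes 4 were at least 2-fold higher and 2 lower, with a median of 0.11. Kmt2a, which encodes MLL, had 4001 in B/T BAL, 1160 in normal marrow, 2869 in proB ALL and 1660 in mixed lineage leukemia, with differences of 0.83 and 1.74 for its 2 probe sets. Aff1, which encodes AF4, had 4263 against 4329, 2004 and 5091. The probe sets were not matched to the parts of either gene held in the fusion, so these signals do not check for its presence. Ell2, an elongation factor that antibody-secreting cells use, had 246 against 5703, 308 and 887, and normal marrow was the 1 high array. Mllt3 (AF9), a stem cell gene and MLL partner, had 365 against 1046, 1133 and 215. Among polycomb and DNA methylation enzymes 5 of 21 measured genes were higher and 1 lower, with a median of 0.64, and Dnmt3b, a DNA methyltransferase, had 4269 against 1227, 4183 and 654.

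Division genes were near the level of normal marrow, itself rich in dividing cells. Of 30 measured S-phase genes 0 were at least 2-fold higher and 6 lower, with a median of -0.18, and of 28 measured G2/M genes 1 was higher and 6 lower, with a median of -0.49. Pcna, the clamp of DNA polymerases, had 43507 in B/T BAL, 40077 in normal marrow, 28044 in proB ALL and 32939 in mixed lineage leukemia. Cyclin E genes were lower, with Ccne2 at 938 against 4986 and Ccne1 at 1988 against 5869. The D cyclins differed by member. Ccnd1 had 4516 against 1499, 995 and 658, while Ccnd2 had 935 against 3698, 22847 and 898, so B/T BAL was highest for the first and among the lowest for the second. Ccnd3 had 5651 against 15140, but its 3 probe sets spread from -1.41 to 2.04 and their mean was 0.08, so it has no settled direction. Of the brakes on division, Cdkn1b (p27) had 3296 against 8755, Cdkn2d (p19 INK4d) 3374 against 15929 and Rb1, the retinoblastoma protein, 1680 against 9634, while Cdkn1c (p57) had 1250 against 155, 66.8 and 91.8.

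Myc was higher, while most genes of its network and of ribosome production lay within 2-fold of normal marrow. Of 26 measured genes 14 lay between the thresholds, 8 were at least 2-fold higher and 4 lower, with a median of 0.73. Myc had 9292 in B/T BAL, 2774 in normal marrow, 5373 in proB ALL and 521 in mixed lineage leukemia, and Nop56, a nucleolar protein, had 18957 against 3954, 12455 and 1601. The Myc antagonists Mxd1 and Mxi1 had 1292 and 1346 against 11696 and 7817 in normal marrow. B/T BAL was the highest array for Myc and Nop56 and low with proB ALL for the antagonists. Of 35 measured ribosomal protein genes 25 were at least 2-fold higher and 0 lower with a median of 1.08, but this median was 0.10 under quantile normalization, where the brightest genes of all arrays are set equal. The highest signal of the B/T BAL array was 129760 and that of normal marrow 71928. Of 18 measured glycolysis genes 3 were higher and 4 lower, with Ldha (lactate dehydrogenase A) at 41757 against 16477 and Hk3, a hexokinase of myeloid cells, at 1819 against 10133.

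The BCL2 family, which governs cell death, had 2 of 15 measured genes at least 2-fold higher and 4 lower, with a median of -0.01. Bmf, which promotes death, had 4371 in B/T BAL, 682 in normal marrow, 822 in proB ALL and 986 in mixed lineage leukemia. Bcl2l1 (BCL-XL), which prevents it, had 1573 against 5002, 2433 and 1533. Bcl2 had 581 against 1398 and 462, with 19896 in proB ALL, but its 5 probe sets spread from -1.20 to 1.38 and their mean was 0.20, so B/T BAL and normal marrow have no settled order for it. Survival signals of lymphocytes come through cytokine receptors, and of 17 measured genes of that list 5 were higher and 2 lower. Il7r, the interleukin 7 receptor, had 8906 against 2486, 13196 and 1642, Stat5a 6276 against 2098, 1299 and 983, and Socs3, a feedback inhibitor, 2089 against 472, 2809 and 787.

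Most interferon-stimulated genes were lower. Of 28 measured genes 22 were lower by at least 2-fold and 1 higher, with a median of -1.57, and B/T BAL was the lowest of the 4 arrays on 20. Rsad2 (viperin) had 820 in B/T BAL, 45401 in normal marrow, 1527 in proB ALL and 1038 in mixed lineage leukemia, and Isg20, a nuclease, had 943 against 23752, 630 and 435. For these 2 genes normal marrow was the 1 high array. Oas3, Ifit1 and Ifih1, sensors and effectors against viral RNA, had 63.2, 104 and 329 against 2196, 1914 and 2501 in normal marrow, with 532, 538 and 1693 in proB ALL. Ly6e was the higher gene at 42442 against 12980, 25716 and 10506 and is also a protein of thymocytes.

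Immediate-early genes, induced within minutes of a stimulus or of tissue handling, were mixed. Of 20 measured genes 7 were at least 2-fold higher and 3 lower, with a median of 0.45. Egr1, which the T-cell receptor also induces, had 5763 in B/T BAL against 766 in normal marrow, 3528 in proB ALL and 4516 in mixed lineage leukemia, while Fos had 6099 against 6749, 1007 and 32385. Of 14 measured heat shock genes 2 were higher and 0 lower, led by Hspa1b at 5058 against 662, 192 and 5983. Homing receptor genes were lower for 11 of 18 measured and higher for Ccr9 alone. Itga4 (the alpha 4 integrin) had 2058 against 8801, 7699 and 4565, and Cxcr4, the receptor that holds cells in the marrow, was close at 7376 against 8058.

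Some of the highest genes, such as Cym and Upk1b, are known from tissues other than blood. Camk4, Endou and H2-Q2 are given beside them for their rank and are not assigned to another tissue. Cym (chymosin), a milk-clotting protease of the stomach, had the largest ratio of all with signals raised to the floor, with 41625 in B/T BAL, 27.5 in normal marrow, 549 in proB ALL and 63.6 in mixed lineage leukemia, at least 220-fold higher. Other stomach and pancreas genes did not go with it: of 5 measured genes of that list Cym was the 1 at least 2-fold higher and 2 were lower, Tff1 had 1292 against 1749 and Cela1, an elastase, had 687 against 5455. Camk4, a kinase that calcium and calmodulin activate, had 11053 against 52.6, 50.2 and 37.9, with 4 probe sets from 0.95 to 6.74. Endou, a nuclease, had 21947 against 236, 542 and 80.0, and Syt13, a synaptotagmin, had 11393 against 118, 43.2 and 135. Upk1b, a protein of the bladder lining, had 7015 against 8.54, 113 and 255, and H2-Q2, a nonclassical MHC class I gene, had 6361 against 41.2, 44.6 and 29.6. For each of these 6 genes B/T BAL was the 1 high array. Stra8, known from germ cells entering meiosis, had 1635 against 121, 57.8 and 345, and Ddx4, another germ cell gene, had 28.2, below the floor, against 190, just above it.

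Matrix and stromal genes were uneven. Of 22 measured genes 10 were at least 2-fold higher and 1 lower, with a median of 0.84 that was 1.70 with a filter at the 75th percentile. Pdgfrb, a growth factor receptor of mesenchymal cells, had 30356 in B/T BAL against 427, 459 and 461, and its 2 probe sets differed by 5.30 and 5.99. Col1a2, a chain of type I collagen, had 38648 against 2397, 1285 and 826, with 3 probe sets from 3.21 to 4.37. Col1a1, which forms the same collagen, was level at 655 against 624, 252 and 400. Col27a1 had 16927 against 299, 237 and 173, Col3a1 had 2324 against 158, 446 and 155, and Col6a1 had 1897 against 354, 562 and 555. Lepr, a leptin receptor of marrow stromal cells, had 654 against 721, Cxcl12, their chemokine, 2592 against 3731, and Pdgfra, another growth factor receptor of mesenchymal cells, 412 against 170. Summed signals of the 4 stroma markers were 42550 in B/T BAL against 7473 in normal marrow, nearly all of the former from Col1a2. Of 13 measured endothelial and adipocyte genes 0 were higher and 8 lower, with a median of -1.03.

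**Figure D4:**
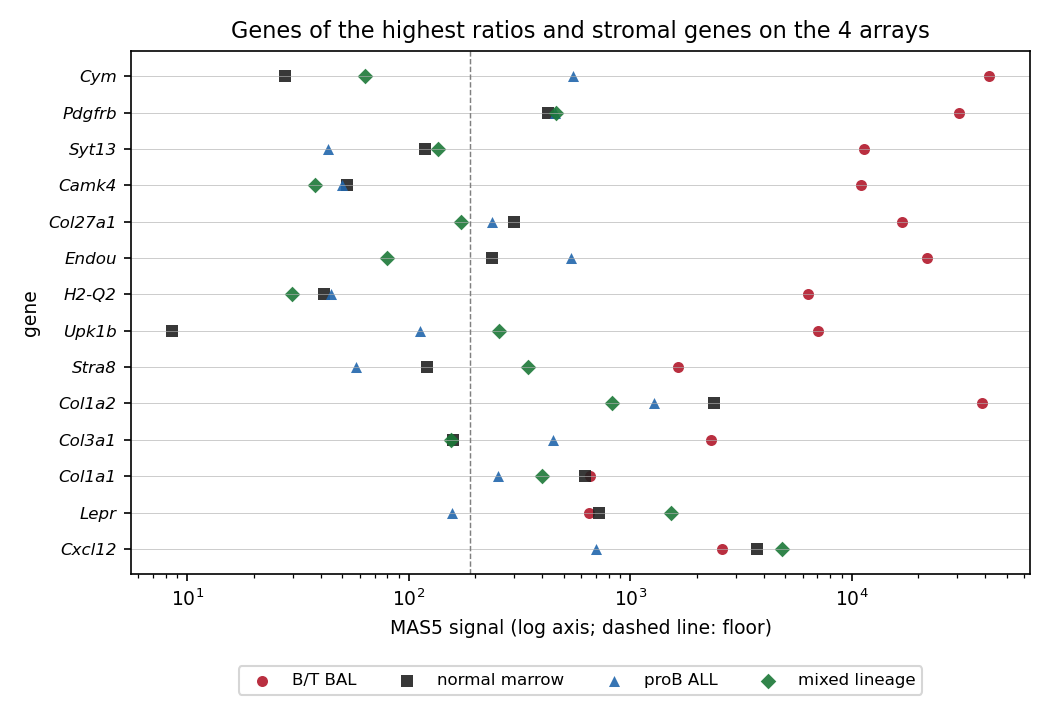
MAS5 signal (log axis) of 9 genes of high rank or rare in blood and of 5 stromal genes on each of the 4 arrays, 1 symbol per array, with the floor as a dashed line. B/T BAL is far to the right of the other 3 arrays from Cym to Col1a2, and within the range of the others or next to them for Col1a1, Lepr and Cxcl12.

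Other genes of high rank were shared with proB ALL or were high on the B/T BAL array alone. Itm2a, a membrane protein of thymocytes, had 45614 in B/T BAL, 661 in normal marrow, 16408 in proB ALL and 421 in mixed lineage leukemia, and Trnp1 had 17064 against 133, 3570 and 62.6. Igf2bp3, an RNA-binding protein of fetal tissue, had 7502 against 102, 1540 and 238, with 6 probe sets from 3.50 to 5.62. Both AF4-MLL leukemias were above normal marrow for these 3. Ptprf, a receptor phosphatase, had 6816 against 168, 94.9 and 380, and Spats2, Gm266 and Sh3gl3 had 6310, 5761 and 5129, with at most 205, 45.2 and 91.6 elsewhere. At the other end, Arsb, a lysosomal sulfatase, was 17.7-fold below the next lowest array, with 572 in B/T BAL, 11737 in normal marrow, 30477 in proB ALL and 10102 in mixed lineage leukemia. Sulf2 had 180 against 3284, 12458 and 3578, and Fgl2 had 76.1 against 2337, 3375 and 3370. For these last 3 genes B/T BAL was the 1 low array.

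**Figure D5:**
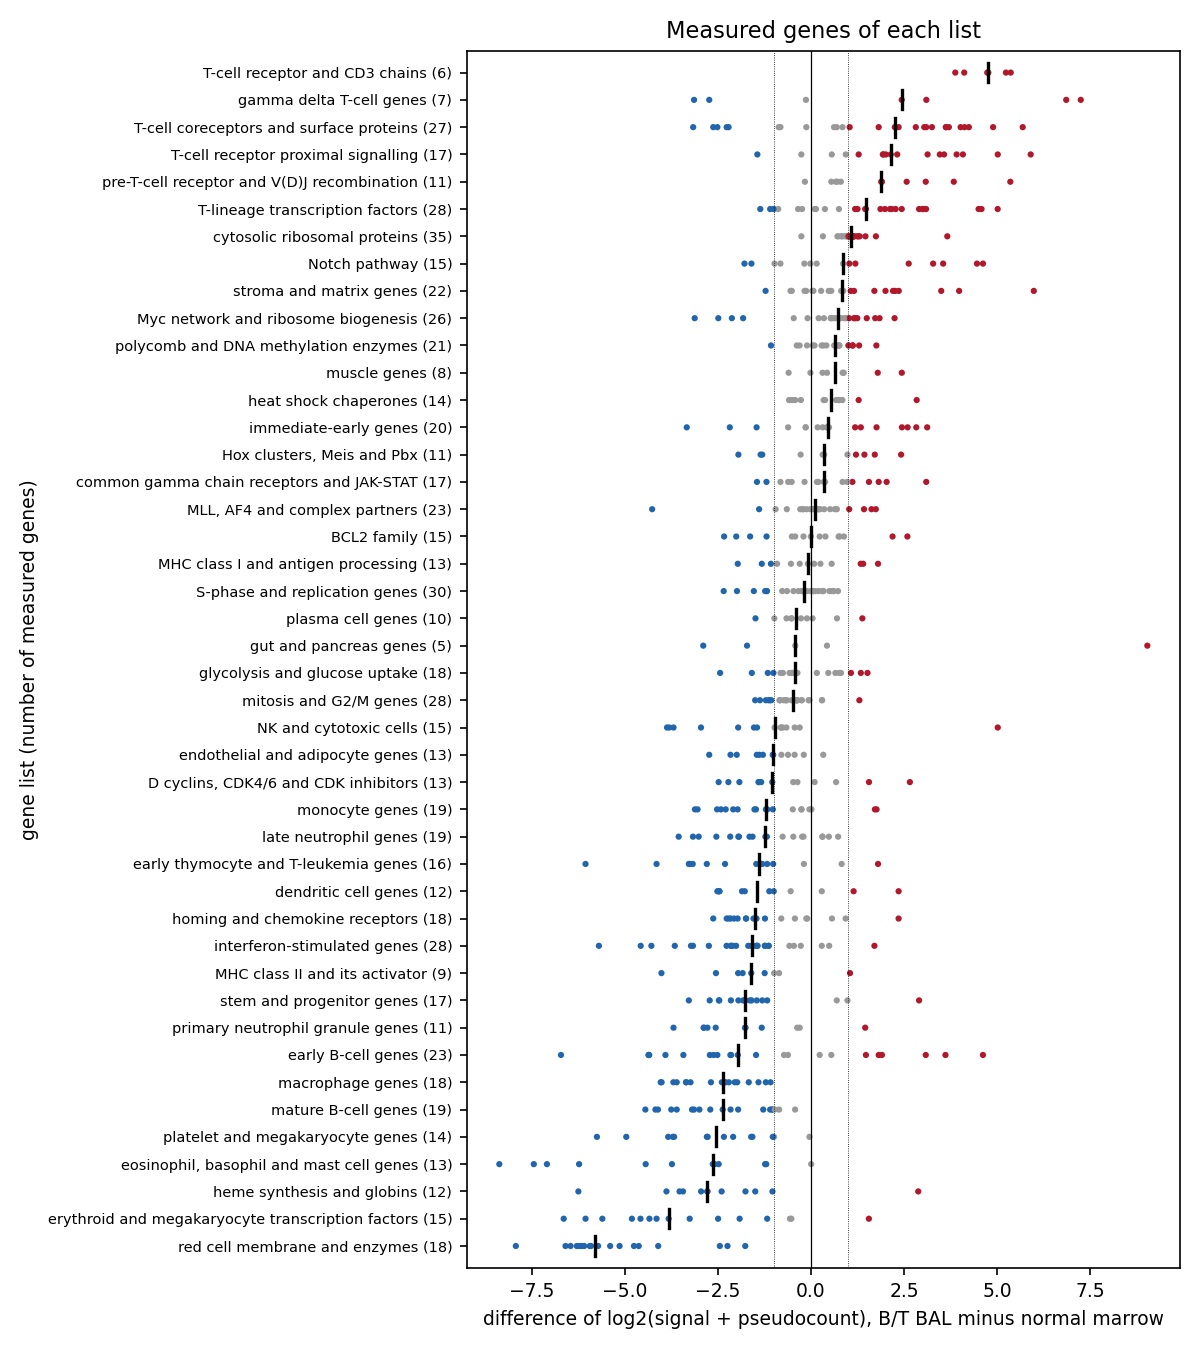
Difference of log2(signal + 51.5), B/T BAL minus normal marrow (x), of each measured gene in the gene lists with at least 5 such genes (y, with their number), sorted by the median, which is the black bar. Red points are at least 2-fold higher and blue points at least 2-fold lower; T-cell receptor genes are at the top with a median of 4.75 and red cell membrane genes at the bottom with -5.82, and the ribosomal list drops from 1.08 to 0.10 under quantile normalization.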

How the data were processed

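Biotin-labelled cRNA from 4 samples was hybridised to 1 Affymetrix mouse array each. The deposited values are intensities on a linear scale, which the authors computed in MAS5, per the submitters' processing notes. The MAS5 version is not given in the sources used here. On each array the mean was 1000.01 once 2% was trimmed from each end, so the arrays share a scale. Of 45101 probe sets 64 controls were left out, 34945 had 1 gene symbol in the platform annotation, 932 several and 9160 none. Of a gene's probe sets the one brightest on average over the 4 arrays, on the log2 scale, was used. Differences are of log2(signal + 51.5). A gene is measured above the floor of 189 on at least 1 of the 2 arrays. Folds use signals raised to the floor and are "at least" where the dimmer array was at or below it, with none where both were.

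The 46 gene lists hold 925 genes, of which 712 were measured, 100 were below the floor on both arrays and 113 had no probe set of 1 symbol. Genes and lists were chosen with earlier results of these data known. Genes named are any on a list, the 25 highest and 25 lowest against normal marrow, and the 15 highest and 15 lowest against the nearest of the other 3 arrays. With 1 array a group no test was made. The code was also run on simulated data, with known changes planted in bright genes only and less noise than the spread between probe sets of a gene. Such a run checks the computation and cannot show how reliable the calls on these arrays are. Promoters are from RefSeq (GRCm38.p6) and were matched by symbol. E-box, GATA, RBPJ and RUNX motifs were searched, and windows are shown for the E-box and GATA motifs only. The RBPJ motif was in 25% of 4 promoters of higher Notch pathway genes. It was in 32.8% of promoters of higher T-cell genes and 25.6% of all promoters. The RUNX motif was in 50%, 55.7% and 45.8% of the same groups. Alternatives were 2 other pseudocounts, signals raised to the floor, 3 other filters, quantile normalization, scaling to the 75th percentile, the mean over probe sets, and leaving out probe sets marked for cross-hybridisation. Python 3.11.15, numpy 2.4.6, pandas 2.3.3 and matplotlib 3.10.9 were used.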

Additional observations from a re-analysis of the deposited data

Results flagged for a closer look

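Probe sets outside the gene comparison also separated the 2 arrays. Of 3599 measured probe sets left out because the annotation gives them no symbol or several, 48 were at least 8-fold higher in B/T BAL than in normal marrow, 43 of them with no symbol and 5 with several, and 34 were at least 8-fold lower. The highest of those with several symbols had 40912 in B/T BAL, 350 in normal marrow, 8882 in proB ALL and 332 in mixed lineage leukemia, and the highest of those with none had 9395 against 109, 72.6 and 83.6. No gene is named for either.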

How the results depend on the processing

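Over 10 other settings 1372 to 2427 genes were at least 2-fold higher and 1597 to 2737 lower, each within 1.5 times the reported count, and the higher share of these calls was 43.3% to 47.0%. Medians of lists were judged against 0.71, the standard deviation between probe sets of a gene. With the pseudocount at the 50th percentile the median of T-cell receptor and CD3 chains was 4.01, that of red cell membrane genes -4.93, and Hbb-b2 was at -5.26. With low signals raised to the floor Hbb-b2 was at -5.25. With no filter, and with a filter over all 4 arrays, the gamma delta median was 1.27. A filter at the 75th percentile, which leaves fewer genes, gave -3.70 for NK and cytotoxic, -3.68 for platelet, -3.54 for eosinophil and 1.70 for stroma genes. Quantile normalization gave 0.10 for ribosomal proteins and -0.00599 for Rpl4. The mean over probe sets gave -3.74 for eosinophil genes and turned Bcl2 (0.20), Ccnd3 (0.079), Hbb-b2 (-2.08), Ighm (0.27) and Slbp (0.61). Without probe sets marked for cross-hybridisation the coreceptor median was 1.04, the gamma delta median 0.18 and Rps24 was at -0.20. Beyond the change in genes entering each, the cause was not tested. Medians of the gut, BCL2 family and glycolysis lists, all under 0.5 in size, changed sign in at least 1 setting. No paired analysis was possible because each group holds 1 array, and the lack of replicates is the main limit.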

Other observations

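Medians of the log2 difference by chromosome, over measured genes placed on 1 chromosome, ran from -0.12 on chromosome 6 to 0.22 on chromosome 17.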
